A study of Mus musculus with 12 samples.

Results

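The genes of the major histocompatibility complex (MHC) class II presentation machinery were examined in perihematomal brain tissue from an intracerebral hemorrhage (ICH) model in young and aged mice. The set held 7 genes of the 54833 in the deposited count table: the chain genes H2-Aa, H2-Ab1 and H2-Eb1, the invariant chain gene Cd74, the class II transactivator gene Ciita, and H2-DMa and H2-DMb1, which encode the peptide editor H2-DM. They were found by their symbols, and all 7 had a row. RNA-seq covered 4 groups of male wild-type C57BL/6 mice: young mice (8 to 10 weeks) and aged mice (20 to 22 months), each after sham surgery or after ICH. ICH was induced by type IV collagenase injected into the right basal ganglia, and sham mice had the same surgery with saline in its place. Brains were perfused and the ipsilateral caudate putamen around the hematoma, or the matching tissue of sham mice, was taken 24 h later. Each group had 3 samples, and each sample was a pool of a few mice, so that the spread between samples was a spread between pools. In the comparisons below, young ICH vs. young sham and aged ICH vs. aged sham ask how the genes responded to the hemorrhage at each age, and the remaining comparisons ask whether age changed their level or their response.

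MHC class II molecules present peptides from endocytosed proteins to CD4+ T cells. An α chain and a β chain assemble in the endoplasmic reticulum with the invariant chain, which blocks the peptide groove and directs the complex to endosomes; proteases then degrade the invariant chain, and H2-DM exchanges its last fragment for antigenic peptides. In the healthy brain parenchyma class II levels are low, and cells that can carry them include border macrophages, dendritic cells, B cells, infiltrating monocytes and activated microglia. Transcription depends on CIITA, a coactivator that binds no DNA itself and docks on RFX, CREB and NF-Y, which sit on the X and Y boxes of class II promoters. The mice carry the b haplotype of the complex, in which the α chain gene of the E molecule is not functional.

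The X and Y boxes are shown for 3 members because they are the sequence feature that class II promoters share, and because it was not used to choose the genes. RefSeq promoter windows (GRCm38.p6) were given for 4 of the 7 members, H2-Aa, H2-Eb1, H2-DMb1 and H2-DMa, the last with a pair of start sites, and the 250 bases upstream of each start were searched. The letters searched on both strands were TGATTGG for the Y box, AACNGATG for the X box, GCAAC for the 5′ end of the X box, which can overlap it, and TGACGTCA for the CREB site next to it. The stretches run 5′ to 3′ on the strand of the gene, capitals mark these letters, and the last base of the H2-Aa and H2-Eb1 stretches is the base before the start site.
H2-Aa, chr17:34287824-34287943, minus strand: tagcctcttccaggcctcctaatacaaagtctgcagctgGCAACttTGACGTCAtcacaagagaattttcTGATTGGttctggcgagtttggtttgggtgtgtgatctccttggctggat
H2-Eb1, chr17:34305747-34305866, plus strand: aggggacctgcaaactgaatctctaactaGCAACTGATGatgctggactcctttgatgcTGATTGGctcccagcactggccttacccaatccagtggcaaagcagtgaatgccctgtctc
H2-DMb1, chr17:34153095-34153114, plus strand: tagtAACTGATGatgctagg
H2-DMb1, chr17:34153124-34153143, plus strand: tcagTGATTGGtctgacctg
The Y box began 50 bases upstream of the start in H2-Aa, 61 in H2-Eb1 and 63 in H2-DMb1, and the X letters began 31, 30 and 29 bases before it, counted from the first capital of each stretch and, for H2-DMb1, across the gap between its stretches. By the GENCODE annotation the H2-DMb1 stretches lie within an H2-DMb1 exon. A Y box with X letters at most 40 bases before it on the same strand was found in 93 of 32851 windows, 0.283%; alone, TGATTGG was in 7.23%, AACNGATG in 1.98%, GCAAC in 29.9% and TGACGTCA in 1.55%. Neither window of H2-DMa held the combination, and a match is a match of letters, not a measured binding site. One H2-DMa window had 74% G and C and the other 37.2%, against a median of 52.4% over all windows, and the former overlaps an exon of the neighbouring gene Brd2.

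Counts assigned to genes ranged from 28410896 to 37785160 per sample, and all 7 members passed the filter on low counts, which left 21495 genes. Their lowest count in any sample was 61, for H2-Ab1. Choroid plexus and striatal neuron markers differed widely between libraries: the summed level of 5 choroid plexus markers ran from 9.45 to 4031 CPM (counts relative to the TMM-normalized total of the library), with 3 ICH libraries above 1000 CPM (young ICH 3 and aged ICH 1 and 2), and that of 8 striatal neuron markers from 249 to 2154 CPM. The neuron markers tended the other way from the class II genes: all 8 had a negative log2FC at both ages (medians −0.95 and −1.11), 0 were called at either age alone, and 5 were called lower with ICH averaged over the ages, though 0 of them by the adjusted *P*. Their part in the class II result was not tested. Results are therefore also given without those 3 libraries, which leaves 2 young ICH samples and 1 aged ICH sample, the latter assumed to vary like the others. In bulk tissue a change in the number of class II-positive cells and a change in RNA per cell cannot be told apart.

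Within the sham brain the members spanned a wide range of levels. On the FPKM scale, which corrects for transcript length, the mean of 3 young sham samples was 7.15 ± 2.66 (SD) for Cd74, 5.66 ± 0.205 for H2-DMa, 3.43 ± 1.35 for H2-Eb1, 2.80 ± 1.24 for H2-Ab1, 2.66 ± 1.26 for H2-Aa, 1.74 ± 0.0517 for H2-DMb1 and 0.413 ± 0.0889 for Ciita. Of the neighbours in this order, the sample ranges separated only H2-DMa from H2-Eb1 and H2-DMb1 from Ciita. In young ICH samples the FPKM order was Cd74 (21.3 ± 7.39), H2-Eb1 (9.06 ± 3.70), H2-Aa (7.56 ± 2.54), H2-Ab1 (7.16 ± 2.29), H2-DMa (6.15 ± 0.347), H2-DMb1 (2.91 ± 1.09) and Ciita (0.493 ± 0.102). H2-DMa stood lower in this order than in young sham samples while its own level did not pass the test, and the ranges of H2-Eb1, H2-Aa, H2-Ab1 and H2-DMa overlapped in this group. The aged groups had the same orders in part: aged sham samples gave Cd74 8.50 ± 3.55, H2-DMa 6.57 ± 0.872, H2-Eb1 3.64 ± 1.62, H2-Aa 2.70 ± 1.39, H2-Ab1 2.53 ± 1.13, H2-DMb1 1.79 ± 0.418 and Ciita 0.463 ± 0.0911, and aged ICH samples gave Cd74 23.8 ± 4.05, H2-Eb1 10.4 ± 2.22, H2-Aa 7.94 ± 1.74, H2-Ab1 7.72 ± 1.62, H2-DMa 6.45 ± 0.223, H2-DMb1 3.79 ± 0.459 and Ciita 0.495 ± 0.0905.

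The classical chain genes rose after ICH at both ages. H2-Aa (ENSMUSG00000036594) encodes the α chain of the A molecule and lies at chr17:34282744-34287823 on the minus strand (GRCm38). Its level was 4.20, 3.43 and 7.99 CPM in the young sham samples and 14.5, 9.09 and 17.96 CPM in the young ICH samples. In aged mice it was 6.12, 2.16 and 7.07 CPM after sham surgery and 15.1, 10.9 and 17.1 CPM after ICH. Every ICH sample was above every sham sample at both ages, and within each group the third sample was the highest and the second the lowest. The log2FC was 1.42 ± 0.42 (SE) in young mice, a 2.67-fold rise, and 1.49 ± 0.42 in aged mice, a 2.80-fold rise, with edgeR adjusted *P* of 0.0363 and 0.0390.

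H2-Ab1 (ENSMUSG00000073421, chr17:34257689-34269419, plus strand) encodes the β chain that pairs with H2-Aa. It measured 3.34, 3.81 and 7.19 CPM in young sham samples against 12.2, 7.62 and 14.6 CPM in young ICH samples, and 5.13, 2.06 and 5.39 CPM in aged sham samples against 9.61 to 14.8 CPM in aged ICH samples. The groups did not overlap, although young ICH 2 was only just above young sham 3. The rise was 2.41-fold in young mice (log2FC 1.27 ± 0.38, edgeR adjusted *P* = 0.0376) and 2.91-fold in aged mice (1.54 ± 0.38, adjusted *P* = 0.0236).

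H2-Eb1 (ENSMUSG00000060586, chr17:34305867-34316674, plus strand) encodes the β chain of the E molecule, which has no partner in this haplotype. The row of that partner, H2-Ea-ps, was at 0 in 11 libraries and had 3 counts in the other one. H2-Eb1 itself was transcribed in all samples, at 3.23, 3.33 and 6.14 CPM in young sham and 11.5, 5.92 and 14.1 CPM in young ICH samples, so that young ICH 2 lay below young sham 3 and the groups overlapped. In aged mice they did not, with 4.73, 2.29 and 6.05 CPM after sham surgery and 11.2, 9.65 and 14.7 CPM after ICH. It rose 2.49-fold in young (log2FC 1.31 ± 0.39, edgeR adjusted *P* = 0.0363) and 2.71-fold in aged mice (1.44 ± 0.39, adjusted *P* = 0.0329).

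Cd74 (ENSMUSG00000024610, chr18:60803848-60812652, plus strand) encodes the invariant chain and had the highest mean FPKM of the members in every group. Its level was 7.93, 8.66 and 14.9 CPM in young sham samples and 31.7, 18.5 and 37.8 CPM in young ICH samples. Aged sham samples had 14.4, 6.37 and 15.6 CPM, and aged ICH samples 31.1, 27.7 and 38.6 CPM. Each ICH sample exceeded each sham sample of the same age. The log2FC was 1.48 ± 0.35 in young mice (2.80-fold, edgeR adjusted *P* = 0.0142) and 1.42 ± 0.35 in aged mice (2.67-fold, adjusted *P* = 0.0231).

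**Figure D1:**
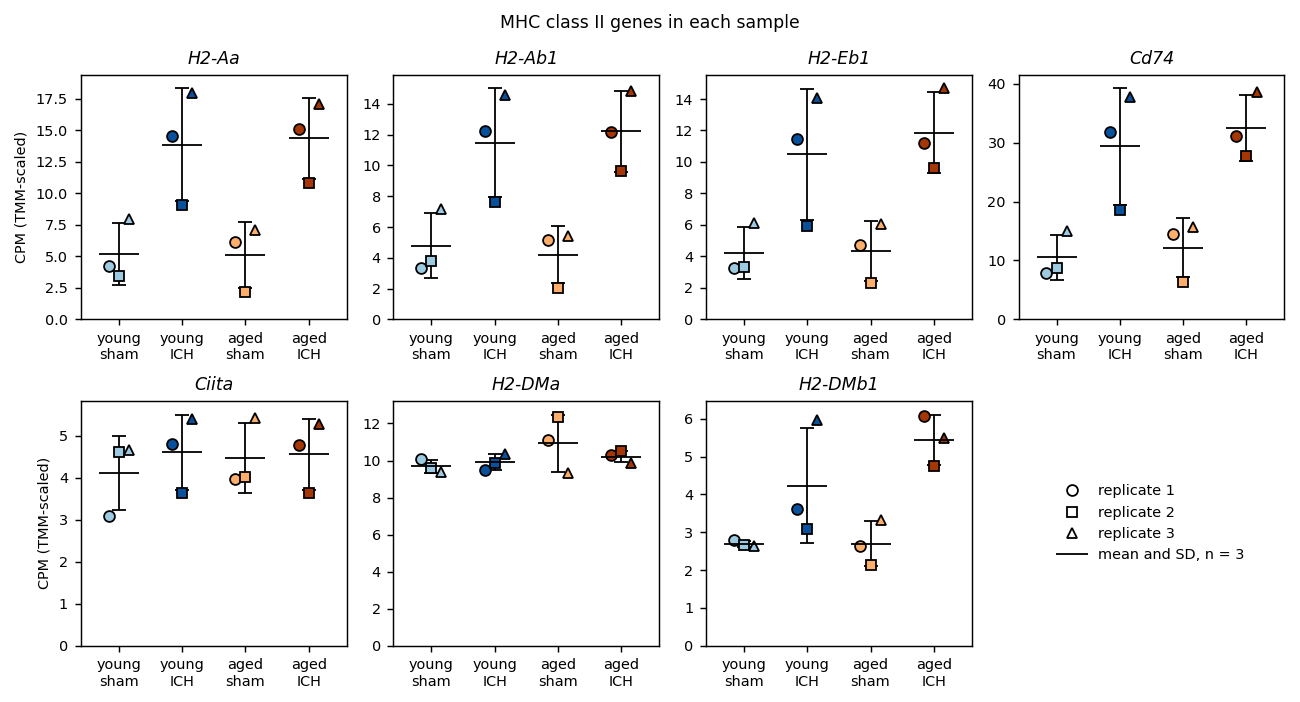
Level of each of the 7 genes in every sample, in CPM scaled to TMM-normalized library sizes, by group; symbols mark replicates 1 to 3, long dashes the mean and bars the SD of 3 samples. H2-Aa, H2-Ab1, H2-Eb1 and Cd74 sit higher after ICH at both ages with replicate 3 on top in each group, while Ciita and H2-DMa stay within the range of the sham samples or close to it.

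The genes of the H2-DM heterodimer did not behave alike. H2-DMb1 (ENSMUSG00000079547, chr17:34153072-34160230, plus strand), the β chain, measured 2.79, 2.66 and 2.64 CPM in the young sham samples and 3.63, 3.10 and 5.96 CPM in the young ICH samples. In aged mice it measured 2.65, 2.12 and 3.32 CPM after sham surgery and 6.08, 4.74 and 5.50 CPM after ICH. The groups were separate at both ages, with a tight young sham group and a young ICH group stretched by young ICH 3. It rose 2.01-fold in aged mice (log2FC 1.01 ± 0.24, edgeR adjusted *P* = 0.0200) and 1.57-fold in young mice, where it met the DEG criterion (0.65 ± 0.24) but not the adjusted threshold (edgeR adjusted *P* = 0.0800). Without young ICH 3 the young log2FC was 0.32 and the call was lost. Of the 100-base stretches of H2-DMb1 transcripts, 11.3% also occur in its neighbour H2-DMb2, so reads could be split between them; H2-DMb2 had a log2FC of 0.31 ± 0.29 in young and 0.38 ± 0.28 in aged mice, neither past the criterion.

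H2-DMa (ENSMUSG00000037649, chr17:34119541-34139101, plus strand), the α chain, did not meet the criterion at either age. It measured 10.1, 9.61 and 9.37 CPM in young sham, 9.49, 9.85 and 10.4 CPM in young ICH, 11.1, 12.4 and 9.31 CPM in aged sham and 10.3, 10.5 and 9.87 CPM in aged ICH samples. The groups overlapped throughout. The log2FC was 0.03 in young mice (95% confidence interval −0.20 to 0.26) and −0.10 in aged mice (−0.33 to 0.13), so that a change of the size seen in H2-DMb1 in aged mice lay outside both intervals. Its annotated exons share 360 bases with Brd2, a broadly expressed gene on the other strand, and 6.58% of its 100-base stretches; the library kit did not mark strand and reads there cannot be assigned. Brd2 itself ran from 181 to 240 CPM over all samples, with a log2FC of 0.23 ± 0.06 after ICH at each age.

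Ciita (ENSMUSG00000022504, chr16:10480059-10528418, plus strand), the coactivator of the other members, was low and did not meet the criterion at either age. Its values were 3.09, 4.60 and 4.65 CPM in young sham and 4.79, 3.63 and 5.39 CPM in young ICH samples. Aged sham samples had 3.97, 4.01 and 5.42 CPM and aged ICH samples 4.77, 3.62 and 5.28 CPM. Sham and ICH samples were interleaved. The log2FC was 0.16 in young mice (95% confidence interval −0.32 to 0.64) and 0.03 in aged mice (−0.45 to 0.51), so that the responses fitted for the chain genes and Cd74 lay above both intervals. Ciita counts were 107 to 181 per sample. Its annotated exons share 329 bases with Dexi on the other strand, and 0.324% of its 100-base stretches. As for H2-DMa, reads there cannot be assigned. Dexi itself ran from 19.9 to 28.5 CPM over all samples, with a log2FC of 0.08 ± 0.12 in young and 0.01 ± 0.12 in aged mice.

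In all, 5 of the 7 members met the DEG criterion of FC > 1.5 or FC < 0.67 with unadjusted *P* < 0.05 in young ICH vs. young sham, where 8.66% of all tested genes were called higher by the same rule, and 4 had an edgeR adjusted *P* under 0.05, against 9.89% of all genes. In aged ICH vs. aged sham 5 members were called higher, against 7.24% of all genes, and the same 5 passed the adjusted threshold, against 7%. Each of these genes missed the adjusted threshold in 3 to 5 of the 12 fits that left out 1 library. Groups did not overlap for 4 members in young and 5 in aged mice, where 18.5% and 17.8% of all genes were so separated in that direction. The median log2FC of the 7 members was 1.27 in young and 1.42 in aged mice, beside medians over all genes of 0.02 and 0.00. With ICH averaged over the ages, the same 5 genes were called higher, against 8.97% of all genes. All 5 also had an edgeR adjusted *P* under 0.05, against 16.7% of all genes, and that of Cd74 was 0.00123. Without the 3 libraries rich in choroid plexus markers, 4 members were called in young mice, H2-DMb1 being the one lost, and 5 in aged mice, but no member then had an edgeR adjusted *P* under 0.05.

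**Figure D2:**
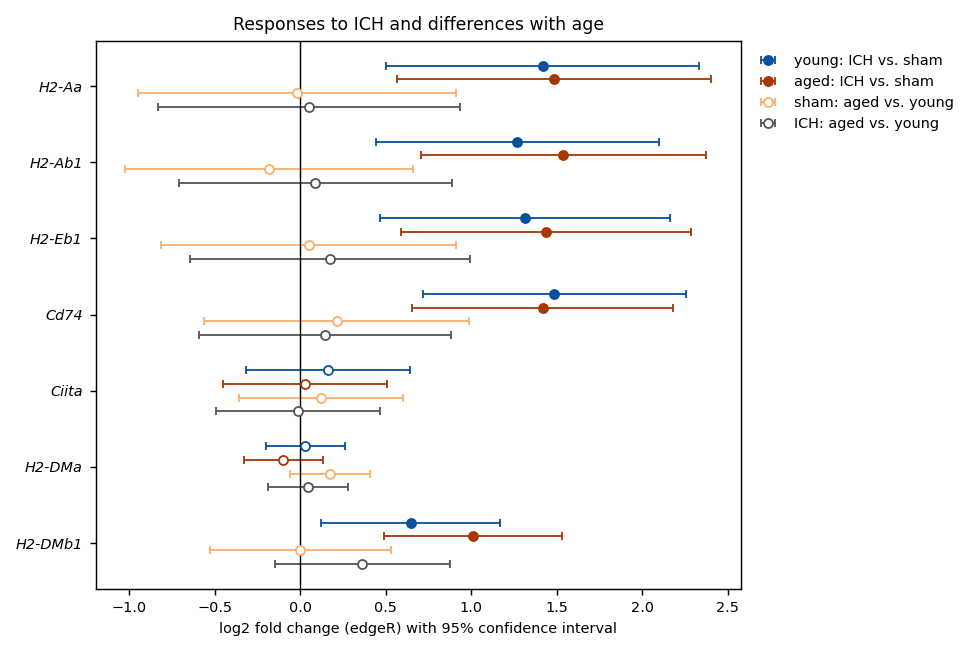
log2FC of each gene with its 95% confidence interval from edgeR, for the response to ICH in young and aged mice and for aged vs. young mice after sham surgery and after ICH; filled points met the DEG criterion. The filled points are the ICH responses of H2-Aa, H2-Ab1, H2-Eb1, Cd74 and H2-DMb1, and all intervals for age include 0.

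Age did not move any member past the criterion. In aged sham vs. young sham 0 of the 7 were called by edgeR, with 0 at an unadjusted *P* under 0.05, where 2.82% of all genes were called higher and 0.898% lower; DESeq2 called 0 as well, and limma on FPKM had H2-DMa alone at an unadjusted *P* under 0.05. The log2FC ran from −0.18 (H2-Ab1) to 0.21 (Cd74), but the intervals were wide, from −0.95 to 0.91 for H2-Aa and from −0.56 to 0.99 for Cd74, so an age difference of almost 2-fold lay within them. The interval was narrower for H2-DMa, from −0.06 to 0.41. In aged ICH vs. young ICH 0 of the 7 were called by edgeR, DESeq2 or limma and 0 had an unadjusted *P* under 0.05, where 2.21% of genes were called higher and 1.3% lower. H2-DMb1 had the largest of these differences, 0.36 (95% confidence interval −0.14 to 0.87). Age averaged over sham and ICH likewise gave 0 calls by each tool, with 2.61% of all genes called higher and 0.944% lower.

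The interaction, the response to ICH in aged mice minus that in young mice, was called for 0 of the 7 by edgeR, DESeq2 and limma, with 0 at an unadjusted *P* under 0.05; over all genes 0.484% were called higher and 1.08% lower. It was 0.07 for H2-Aa (−1.21 to 1.35), 0.27 for H2-Ab1 (−0.89 to 1.43), 0.12 for H2-Eb1 (−1.06 to 1.31), −0.07 for Cd74 (SE 0.49) and 0.36 for H2-DMb1 (−0.37 to 1.10), with 95% confidence intervals in brackets. With 3 pools per group these intervals do not show that the responses were equal. For H2-DMb1, 1 library decided the call: without young ICH 3 both its interaction (0.69) and its difference between aged ICH and young ICH (0.69) met the criterion, with edgeR adjusted *P* of 0.9995 and 0.206.

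The spread within groups was shared by the chain genes and Cd74. The third sample was the highest of its group for all 4 genes in every group, and the second was the lowest for all 4 in young ICH, aged sham and aged ICH samples; in young sham samples the first was the lowest for 3 of them. The ratio of the highest to the lowest sample within a group ran from 1.40 for Cd74 in aged ICH to 3.27 for H2-Aa in aged sham samples. After the group means were removed, the log2 CPM values of these genes followed each other over the 12 samples with Pearson's r of 0.96 to 0.99, given as a description, since the genes share libraries and depth. The same deviations of H2-DMa ran the other way, with r from −0.63 to −0.61 against the 4 genes, while those of Ciita (0.60 to 0.73) and H2-DMb1 (0.63 to 0.71) ran with them. The coefficient of variation was 17.3 to 50.9% for the chain genes and Cd74 and 3.13 to 14.1% for H2-DMa. Nothing in the labels ties samples of the same number together across groups.

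Proportions between the transcripts within a sample are given as a description, since they restate the levels above. The FPKM ratio of H2-Aa to H2-Ab1, whose proteins pair one to one, was 0.951 ± 0.156 in young sham, 1.05 ± 0.0223 in young ICH, 1.03 ± 0.115 in aged sham and 1.03 ± 0.0505 in aged ICH samples. That of Cd74 to H2-Aa was 2.79 ± 0.497, 2.80 ± 0.0978, 3.33 ± 0.524 and 3.04 ± 0.326 in the same order, with overlapping groups. H2-DMb1 to H2-DMa, also a pair of one heterodimer, went from 0.308 ± 0.00302 in young sham to 0.468 ± 0.149 in young ICH and from 0.282 ± 0.104 in aged sham to 0.589 ± 0.0803 in aged ICH samples. These groups did not overlap, as the rise of H2-DMb1 beside H2-DMa, which did not meet the criterion, implies. Ciita to H2-Aa went from 0.174 ± 0.0790 to 0.0674 ± 0.0100 in young mice and from 0.215 ± 0.131 to 0.0627 ± 0.00254 in aged mice, again with no overlap.

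**Figure D3:**
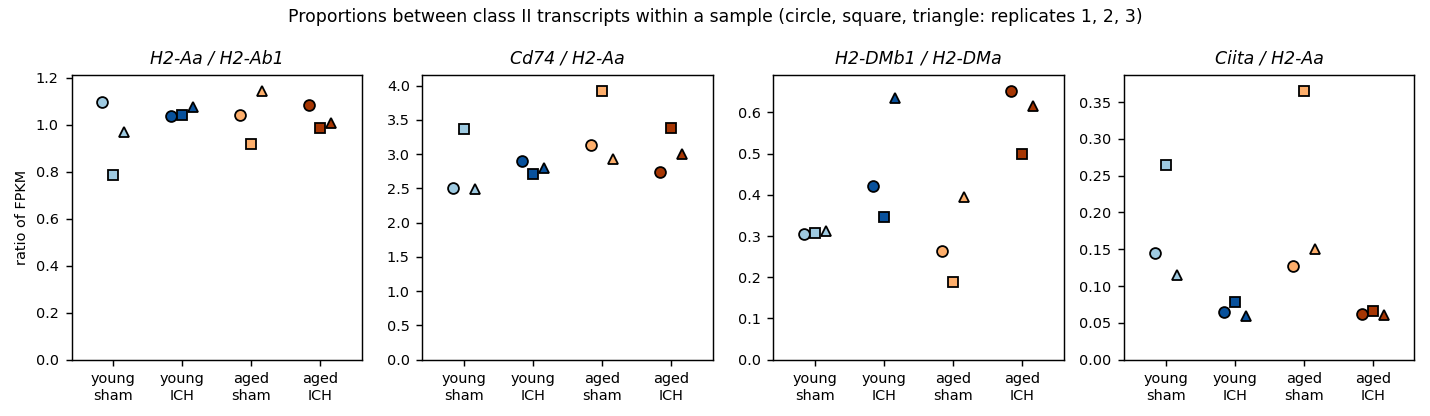
Ratios of FPKM within each sample for H2-Aa to H2-Ab1, Cd74 to H2-Aa, H2-DMb1 to H2-DMa and Ciita to H2-Aa; symbols mark replicates 1 to 3. The first pair of ratios is alike in all groups, H2-DMb1 to H2-DMa is higher in every ICH sample than in the sham samples of that age, and Ciita to H2-Aa is lower.

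Beyond the members, 14 further genes of class II chains, peptide loading and turnover could be tested. Of these, 2 rose in young and the same 2 in aged mice, with a median log2FC of 0.31 and 0.32: Ifi30, the lysosomal thiol reductase that unfolds antigens (0.69 ± 0.20 in young and 0.95 ± 0.20 in aged mice), and Cd63, a tetraspanin of endosomes (1.26 ± 0.20 and 1.29 ± 0.20). The young log2FC of Ifi30 was 0.58 without young ICH 3, just under the criterion. By that criterion 8.66% of all tested genes were called higher in young and 7.24% in aged mice. The log2FC of the proteases that process the invariant chain and antigens were below the 1.5-fold limit: Ctss was at 0.51 ± 0.11 in young and 0.38 ± 0.11 in aged mice, Ctsl at 0.58 ± 0.09 at both ages and Lgmn at 0.31 ± 0.11 and 0.45 ± 0.11. Their edgeR adjusted *P* was 0.00765 and 0.0379 for Ctss, 0.00198 and 0.00460 for Ctsl, and 0.0647 and 0.0194 for Lgmn. March1, a ubiquitin ligase that removes class II from the surface, was at −0.20 ± 0.08 and −0.14 ± 0.08 and did not pass the criterion.

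H2-Ob was the one gene of this list that met the criterion in the comparisons between ages. It encodes the β chain of H2-O, an inhibitor of H2-DM known from B cells, and averaged 0.333 ± 0.228 CPM in young sham, 0.394 ± 0.156 in young ICH, 0.911 ± 0.408 in aged sham and 0.828 ± 0.214 in aged ICH samples. It met the criterion in aged sham vs. young sham (log2FC 1.41 ± 0.48) and in aged ICH vs. young ICH (1.06 ± 0.48), but its edgeR adjusted *P* was 0.282 and 0.515, and the largest count was 41. Without aged sham 2 the sham call was lost (0.98). The ICH call was lost without any 1 of 7 libraries (young sham 2, young ICH 1 or 2, aged sham 1 or 3, aged ICH 1 or 3), with log2FC of 0.86 to 1.06. With age averaged over sham and ICH, H2-Ob was 1.24 ± 0.34 higher (edgeR adjusted *P* = 0.0944) and met the criterion in all 12 fits without 1 library each (1.02 to 1.58). In that comparison 1 gene of the list other than H2-Ob was higher with an edgeR adjusted *P* under 0.05, at less than the 1.5-fold limit. The α chain gene H2-Oa had at most 8 counts and could not be tested.

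Among 20 tested genes that control class II transcription, 2 rose in young and 4 in aged mice, with a median log2FC of 0.11 at each age. Over all tested genes, 8.66% were called higher in young and 7.24% in aged mice. The subunits of RFX, which binds the X box, did not pass the criterion: Rfx5 was at 0.17 ± 0.10 in young and 0.11 ± 0.10 in aged mice, Rfxank at 0.25 ± 0.13 and 0.24 ± 0.13, and Rfxap at −0.0037 ± 0.10 and 0.10 ± 0.10. Spi1, which encodes the myeloid factor PU.1, rose at both ages (1.06 ± 0.24 and 1.01 ± 0.24), as did Socs1, an inhibitor of cytokine receptor signaling (1.22 ± 0.36 and 1.07 ± 0.32). Irf1, an interferon-induced factor that acts on a Ciita promoter, had 0.96 ± 0.18 in aged and 0.37 ± 0.18 in young mice, and Irf8 0.62 ± 0.13 and 0.52 ± 0.13; the aged call of Irf8 was lost without aged sham 2 (0.51) or aged ICH 1 (0.50). The differences between the ages were 0.58 ± 0.26 for Irf1 and 0.10 ± 0.18 for Irf8, neither of them called. Between aged ICH and young ICH samples, Irf1 (0.84 ± 0.18) and Socs1 (0.85 ± 0.31) were called higher, with edgeR adjusted *P* of 0.161 or above. Irf1 kept this call in all 12 fits without 1 library each. Socs1 lost it in 3 of them, among these the fit without aged ICH 1 (0.66). Socs1 was also called higher in aged sham vs. young sham, lost in 4 of 12 such fits (0.81 to 1.26). With age averaged over sham and ICH, Socs1 was called in all 12 (0.83 to 1.06). Transcripts of Ifng, the main inducer of CIITA, were at 0 in 8 libraries with at most 1 count in the others, so its level could not be compared at this depth. Of 11 interferon-γ-inducible genes, 5 were called higher and 1 lower in young mice, and 8 higher in aged mice. Their median log2FC was 0.94 and 1.42. Between aged ICH and young ICH samples 4 were called higher, against 2.21% of all tested genes, but 0 by the edgeR adjusted *P*. The interaction was called for 0 of them. The part of interferon-γ in the class II result was not tested.

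On the T cell side, 10 genes of the receptors and costimulatory ligands that meet class II could be tested; 4 rose and 0 fell in young mice, and 4 rose and 2 fell in aged mice, with median log2FC of 0.64 and 0.87. By the same rule 8.66% of all tested genes were called higher in young and 7.24% in aged mice. The share called lower is not given here, so the 2 falls cannot be set against it. Cd86, the costimulatory ligand of antigen-presenting cells, rose at both ages (0.82 ± 0.12 and 0.74 ± 0.12). Cd274, encoding the inhibitory ligand PD-L1, went from 8.27 ± 3.36 to 21.4 ± 5.33 CPM in aged mice (1.37 ± 0.33, edgeR adjusted *P* = 0.0222) and had 0.72 ± 0.34 in young mice. Cd28 met the criterion at both ages (1.16 ± 0.45 and 1.16 ± 0.50) and Ctla4 (1.30 ± 0.52) and Icos (1.59 ± 0.62) in young mice, all at means of 1.19 CPM or below and with edgeR adjusted *P* of 0.0928 or above. Of 12 fits without 1 library each, the young call was lost in 3 for Cd28, 2 for Ctla4 and 3 for Icos. Without young ICH 1 the young log2FC was 0.76 for Cd28, 0.75 for Ctla4 and 0.78 for Icos and none was called. The aged call of Cd28 was lost without any 1 of 5 aged libraries. Lag3, a receptor that binds class II, fell in aged mice (−0.67 ± 0.20, edgeR adjusted *P* = 0.0447; −0.41 and not called without aged sham 2). This fall was from a higher level: Lag3 averaged 4.14 ± 0.347 CPM in young sham, 3.26 ± 0.447 in young ICH, 7.96 ± 2.35 in aged sham and 4.99 ± 0.653 in aged ICH samples. Cd4 met the criterion in aged mice (−1.27 ± 0.56, edgeR adjusted *P* = 0.161), but that call was lost in 7 of 12 fits without 1 library each (−2.14 to −0.82). Cd4 stood at 24.0 ± 9.32 CPM in young sham samples, in which the T cell genes Cd3e and Cd3g averaged 0.263 ± 0.263 and 0.199 ± 0.144 CPM.

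With 2.82% of all tested genes called higher in aged sham vs. young sham, 3 of these 10 genes were so called. They were Lag3 (0.94 ± 0.20, in all 12 fits without 1 library each), Cd80, a costimulatory ligand (0.59 ± 0.25, lost in 3 of 12), and Cd274 (0.77 ± 0.34, lost in 7 of 12), with edgeR adjusted *P* of 0.130 or above. After ICH, Cd274 (1.42 ± 0.34, in all 12 fits) and Lag3 (0.61 ± 0.20, lost without young ICH 3 or aged ICH 1) were higher in aged than in young mice, and Icos (−1.58 ± 0.62, lost without young ICH 1 or aged ICH 3) was lower, with edgeR adjusted *P* of 0.196 or above. In that comparison 2.21% of all tested genes were called higher and 1.3% lower.

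Cd40, the receptor through which helper T cells act on antigen-presenting cells, averaged 0.788 ± 0.274 CPM in young sham, 0.778 ± 0.126 in young ICH, 0.518 ± 0.105 in aged sham and 1.15 ± 0.237 in aged ICH samples. It rose in aged mice (log2FC 1.15 ± 0.30, edgeR adjusted *P* = 0.0278; 0.96 and not called without the choroid-rich libraries), was at −0.02 ± 0.29 in young mice, and was the one gene of the class II lists with a called interaction (1.17 ± 0.42). With the adjustment over all genes this interaction had an edgeR adjusted *P* of 0.99991, and without young sham 3 it was 0.91 and not called. Class I presentation genes, given for contrast, were called higher for 8 of 11 in young and 10 of 11 in aged mice. Their median log2FC was 0.72 and 0.85. The shares of all tested genes called higher were 8.66% and 7.24%. Nlrc5, the class I transactivator, had 0.80 ± 0.37 in young and 1.38 ± 0.36 in aged mice, and was called in aged mice only. For the interaction, 0 of these 11 genes were called. In aged ICH vs. young ICH 4 of the 11 were called higher, where 2.21% of all tested genes were, but 0 by the edgeR adjusted *P*. All 11 had a positive log2FC there, with a median of 0.39. In aged sham vs. young sham 0 were called, 10 had a positive log2FC and the median was 0.36.

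**Figure D4:**
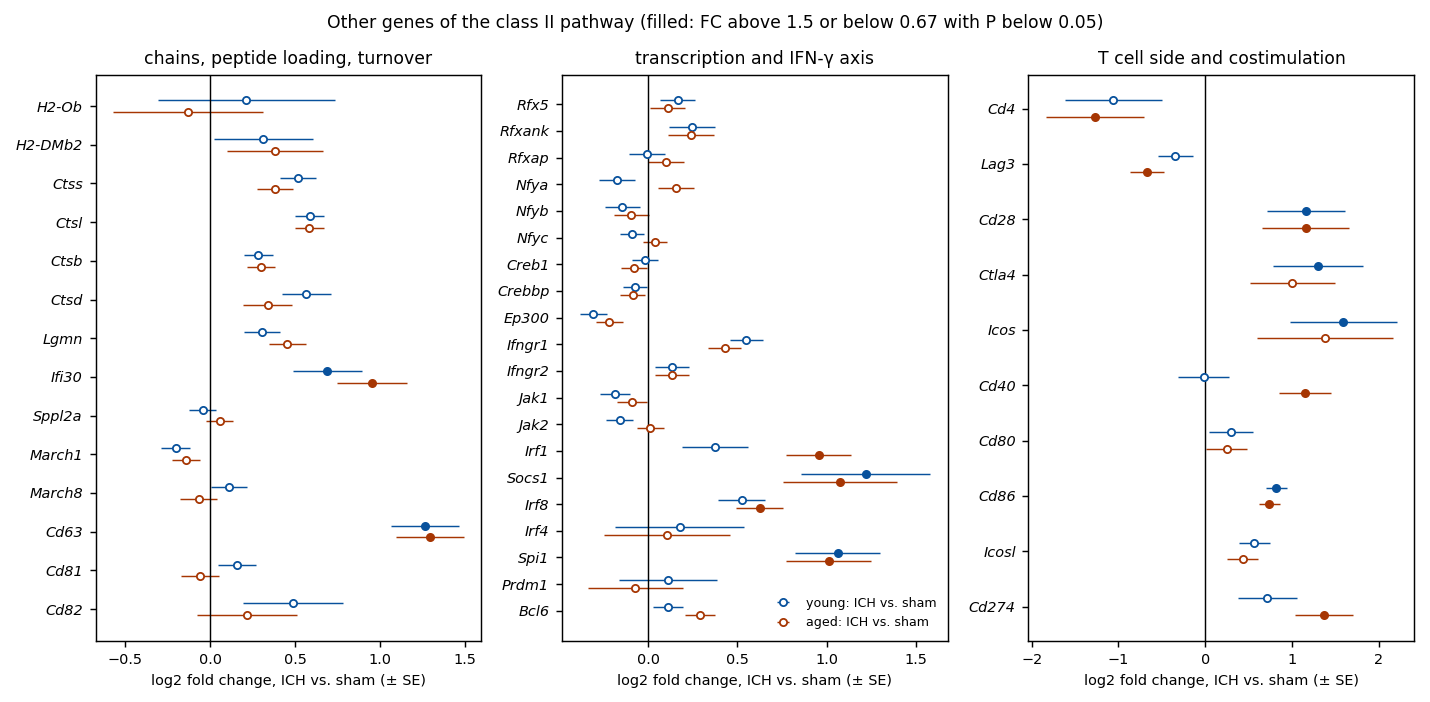
log2FC for ICH vs. sham with its SE in young and aged mice for the tested genes of class II chains and loading (14), of class II transcription (20) and of the T cell side (10); filled points met the DEG criterion. Ifi30, Cd63, Socs1, Spi1, Cd28 and Cd86 are filled at both ages, and Ctla4 and Icos in young mice alone. In aged mice alone Irf1, Irf8, Cd40 and Cd274 are filled as rises, and Lag3 and Cd4 as falls.

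Markers of cells that can carry class II moved to different extents. The summed level of H2-Aa, H2-Ab1, H2-Eb1 and Cd74 was 18.7, 19.2 and 36.3 CPM in young sham samples and 41.1 to 84.4 CPM in young ICH samples, and 12.9 to 34.1 and 57.8 to 85.3 CPM in the aged groups. The summed 10 homeostatic microglia markers were at 455 to 538 CPM in young sham, 480 to 567 in young ICH, 466 to 508 in aged sham and 487 to 558 CPM in aged ICH samples. None of the 10 rose in young and 1, Fcrls, rose in aged mice (0.65 ± 0.16), where 8.66% and 7.24% of all tested genes were called higher. The call of Fcrls was lost in 2 of 12 fits without 1 library each (0.47 without aged sham 2). P2ry12 fell at both ages (−0.70 ± 0.14 and −0.85 ± 0.14). Per unit of these markers the class II sum went from 0.0516 ± 0.0246 to 0.123 ± 0.0329 in young and from 0.0529 ± 0.0226 to 0.137 ± 0.0337 in aged mice, without overlap.

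Markers of disease-associated microglia, a state of activated microglia, rose where the homeostatic ones did not. Of the 12 in that list, 7 were called higher in young and 7 in aged mice, with median log2FC of 0.84 and 0.71, and 9 and 7 had an edgeR adjusted *P* under 0.05. Of all tested genes, 8.66% and 7.24% were called higher, and 9.89% and 7% were higher by the adjusted threshold. Cst7, Itgax, Clec7a, Spp1, Cd9 and Tyrobp were called at both ages, Gpnmb in young and Ctsz in aged mice. Of 12 fits without 1 library each, the young call was lost in 1 for Cd9. The aged call was lost in 2 for Itgax and 1 for Ctsz. Spp1, the gene of osteopontin, was 2.30 ± 0.36 higher in young and 1.89 ± 0.35 in aged mice, Clec7a, a phagocytic receptor, 1.996 ± 0.48 and 1.45 ± 0.43, Itgax 1.32 ± 0.31 and 0.85 ± 0.30, and Cst7 1.23 ± 0.24 and 1.38 ± 0.22. Several of these genes are also expressed by infiltrating macrophages. The sum over the list overlapped between sham and ICH samples at both ages (950 to 1165 and 1082 to 1358 CPM in young mice, 1059 to 1419 and 1129 to 1389 CPM in aged mice). Its part in the class II result was not tested.

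The summed markers of infiltrating monocytes and of border macrophages were higher after ICH at both ages, as were those of neutrophils. The 10 monocyte markers summed to 137 to 153 CPM in young sham and 257 to 307 CPM in young ICH samples, and 111 to 188 and 252 to 316 CPM in the aged groups. Of 9 tested, 6 were called higher in young and 5 in aged mice, against 8.66% and 7.24% of all tested genes. Among them were Ccr2 (1.94 ± 0.52 and 1.82 ± 0.52), Chil3 (3.58 ± 0.54 and 2.94 ± 0.48), Plac8 and Fn1 at both ages and Itgal in young mice. Plac8 lost its call in 4 of 12 fits without 1 library each at both ages (1.14 to 2.37 and 0.99 to 1.90). The ratio of the class II sum to this sum was 0.169 ± 0.0667 in young sham and 0.229 ± 0.0611 in young ICH samples, with overlap (exact permutation *P* = 0.2). In aged mice it was 0.168 ± 0.0469 and 0.249 ± 0.0413, without overlap (exact permutation *P* = 0.1, the smallest that 3 against 3 samples allow). The 10 border macrophage markers summed to 10.1 to 22.4 and 36.4 to 44.2 CPM in young sham and ICH samples, and 15.1 to 22.1 and 34.8 to 41.9 CPM in the aged groups, and 5 of 9 tested (Mrc1, Lyve1, F13a1, Pf4 and Ms4a7) were called higher in young mice. In aged mice 4 of them were called, all but Ms4a7, and Cd163 was called lower. The shares of all tested genes called higher were those given for the monocyte markers. Of 12 fits without 1 library each, the aged call was lost in 8 for Cd163 (−1.14 to −0.48) and in 3 for Mrc1 (0.55 to 0.91), and the young call of Ms4a7 in 3 (0.93 to 1.46). The ratio of the class II sum to them was 1.86 ± 1.496 and 1.60 ± 0.412 in young mice (exact permutation *P* = 1) and 1.40 ± 0.695 and 1.90 ± 0.205 in aged mice (exact permutation *P* = 0.3). The 10 neutrophil markers summed to 11.3 to 13.9 CPM in young sham, 22.1 to 40.1 in young ICH, 16.2 to 27.6 in aged sham and 40.7 to 57.1 CPM in aged ICH samples. The ratio of the class II sum to the neutrophil sum was 2.09 ± 0.985 in young sham and 2.20 ± 1.08 in young ICH samples. In aged mice it was 1.27 ± 0.584 and 1.49 ± 0.525, and the groups overlapped at both ages. The part of these cells in the class II result was not tested.

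Dendritic and B cell markers gave lower counts. The full sum of 12 dendritic cell markers was lower after ICH, from 220 to 249 CPM in young sham to 175 to 191 CPM in young ICH and from 172 to 186 CPM in aged sham to 160.5 to 162.7 CPM in aged ICH samples. Fscn1, which neurons also express, made up most of it, with 127 to 201 CPM as a group mean. Without it, the other 11 dendritic cell markers summed to 28.0 to 29.6 CPM in young sham, 28.4 to 34.0 in young ICH, 29.8 to 34.6 in aged sham and 30.8 to 36.9 CPM in aged ICH samples, of which Flt3 and Zbtb46 gave 12.1 and 12.8 CPM in young sham samples. Of 11 tested, 2 were called higher in young mice, 1 in aged mice and 4 with ICH averaged. The shares of all tested genes so called were 8.66%, 7.24% and 8.97%. Clec10a rose in young mice (1.64 ± 0.37, edgeR adjusted *P* = 0.0110), from 0.475 ± 0.239 to 1.502 ± 0.359 CPM. Kmo was called in young mice (1.13 ± 0.41, lost in 2 of 12 fits without 1 library each) and Ccl22 in aged mice (1.29 ± 0.45, lost in 2 of 12), and Xcr1 had at most 9 counts. The defining B cell marker Ms4a1 had at most 3 counts in any library, and the 8 B cell markers other than Ighm summed to 2.35 to 3.61 CPM over all samples with overlapping groups. Of the 4 B cell markers tested, Cr2 fell in aged mice (−0.70 ± 0.19). The 9 T cell markers other than Thy1 summed to 2.09 to 4.98 CPM in young sham and 4.16 to 5.67 CPM in 2 of the young ICH samples, with 20.2 CPM in young ICH 1. For the chain genes and Cd74, young ICH 1 was neither the highest nor the lowest of its group. The part of T cells in the class II result was not tested. In aged mice the sum of these T cell markers went from 2.32 to 3.203 CPM after sham surgery to 4.30 to 5.28 CPM after ICH. Of 8 tested, 5 were called higher in young mice, Cd3e (2.10 ± 0.67), Cd3g (2.05 ± 0.80), Cd2 (2.13 ± 0.74), Cd8a (1.92 ± 0.84) and Lck (1.14 ± 0.38), and Cd5 (1.57 ± 0.55) in aged mice. Of 12 fits without 1 library each, the call was lost in 1 for Cd3e, 3 for Cd3g, 2 for Cd2, 7 for Cd8a, 2 for Lck and 1 for Cd5.

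**Figure D5:**
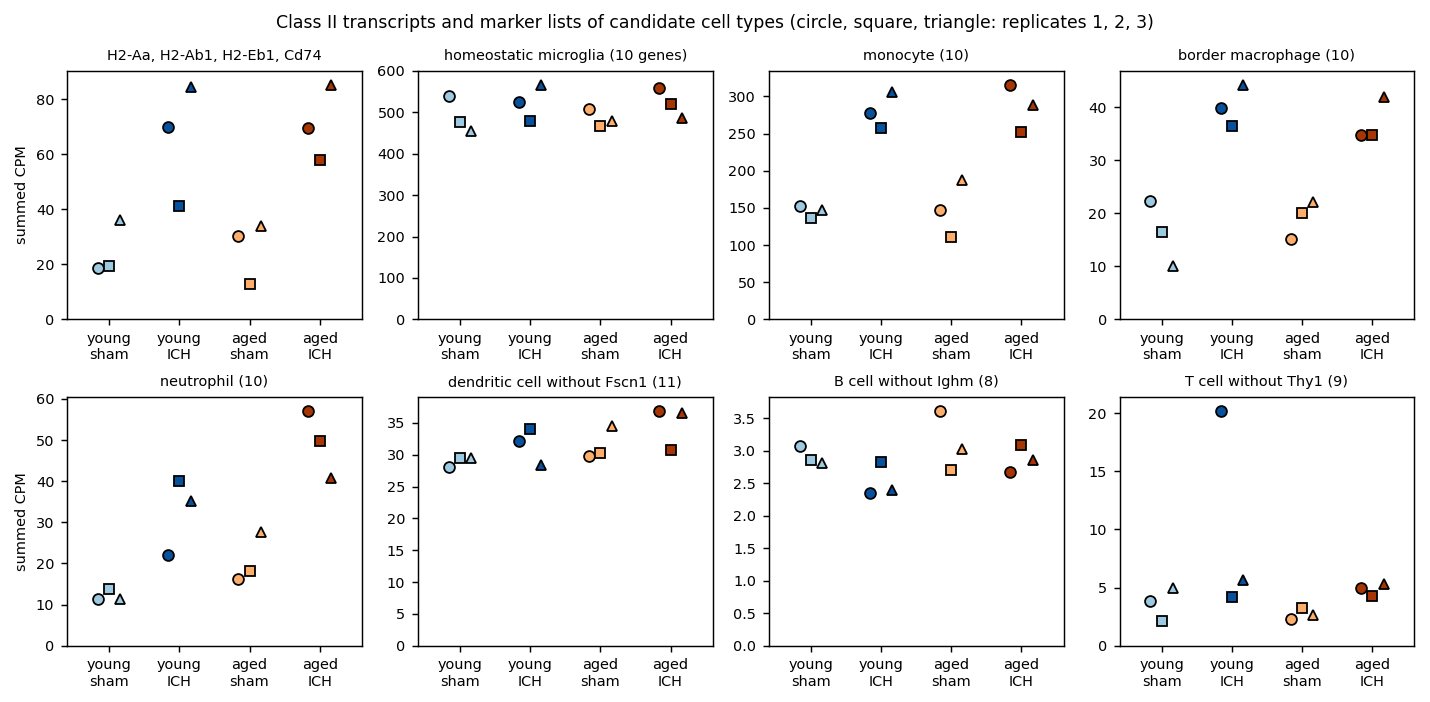
Summed CPM per sample of H2-Aa, H2-Ab1, H2-Eb1 and Cd74 and of marker lists of cell types that can be present in the tissue, by group; symbols mark replicates 1 to 3, and the number of genes summed is in brackets. The class II sum is 41.1 CPM or higher in each ICH sample; the monocyte, border macrophage and neutrophil sums separate sham from ICH samples at each age, and the microglia, dendritic cell and B cell sums do not.

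The genes outside these lists whose log2 CPM followed the mean standardized level of the 7 members most closely over the 12 samples were Gm7993 (Pearson's r = 0.96), Mrps6, Casp8, Mapkapk3, Gm13293, Cnn3, Recql4, Pdlim4, Rnh1 and S100a10 (r = 0.95). They are given as a description: the samples fall into sham and ICH clusters, and any gene that differs between these follows the members to that extent. Cnn3 was at 65.8 to 84.6 CPM in young sham and 117 to 188 CPM in young ICH samples, and at 67.2 to 110 and 151 to 175 CPM in the aged groups, with no overlap at either age. S100a10 was at 15.2 to 19.7 and 32.2 to 42.1 CPM in young mice and at 15.4 to 23.1 and 34.9 to 42.8 CPM in aged mice, likewise without overlap.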

How the data were processed

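Gene counts and FPKM of 12 RNA-seq libraries were used, 3 per group as the labels name them. Per the study's methods, the authors used HISAT2 for alignment to GRCm38.p6 and featureCounts for counting, and deposited raw counts, which are not normalized, and FPKM. A strand setting for the counting was not found in the methods or labels. Columns of the authors' own comparisons (fold changes and *P*-values) were not used. Counts were tested with edgeR 4.0.16 in R 4.3.3 by the quasi-likelihood test, with TMM normalization, filterByExpr with a minimum count of 10, all 12 samples and 4 groups in 1 fit, and Benjamini-Hochberg adjustment over 21495 genes. Each SE was obtained from the log2FC and its quasi-likelihood F. FPKM were used for levels and, as log2(FPKM + 1), for a limma 3.58.1 fit, which understates changes of low genes. DESeq2 1.42.0 was an alternative. The script was tested on simulated counts. All 7 members were named. From the other lists, genes that met the criterion in a comparison described and defining markers near 0 were named, as were the 10 genes most correlated with the members' mean. The class I, interferon-γ-inducible and neutrophil lists are given by counts or sums. Further genes of the lists, such as RFX subunits and proteases, were chosen after their values were seen. The members and lists were chosen with earlier results of these data known. Leaving out the libraries rich in choroid plexus markers, and summing lists without Fscn1, Thy1 or Ighm, were choices made after seeing the data. Gene positions are from GENCODE vM21. Results for 1 gene of the transcription list, 1 B cell marker and 1 monocyte marker are not reported here.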

Additional observations from a re-analysis of the deposited data

Results flagged for a closer look

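Cd40 was the one gene of the class II lists with a called interaction, 1.17 on the log2 scale. Over all genes tested 0.484% were called in this direction and 1.08% in the other, and the edgeR adjusted *P* was 0.99991. Without young sham 3 the interaction was 0.91 and not called, and the largest count of Cd40 was 51. In aged mice 3 of 3 ICH samples were above all sham samples, as they were for 17.8% of all genes.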

How the results depend on the processing

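Both ICH comparisons kept 5 called members with RLE size factors, no filter on low counts, DESeq2, the groups compared alone and the replicate block; limma on log2(FPKM + 1) gave H2-DMb1 a young log2FC of 0.48 and no call. Without 1 replicate each, 4 to 5 members were called in young and 5 to 5 in aged mice, 0 to 1 in aged ICH vs. young ICH and 0 to 1 for the interaction. Without the libraries rich in choroid plexus markers, H2-DMb1 made 1 call in aged ICH vs. young ICH. Deviations from the group means did not follow the replicate numbers throughout (5 of 18 correlations were over 0.1, from −0.454 to 0.235). With 3 samples per group such correlations cannot settle whether samples of the same number were handled together. Replicate 3 was the highest sample for H2-Aa, H2-Ab1, H2-Eb1 and Cd74 in every group. The replicate block changed no count of members called.

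Values near 0 changed sign. For H2-DMb1 in aged sham vs. young sham the log2FC was −0.0062 with RLE size factors, −0.0018 with no filter, −0.0072 with DESeq2, −0.028 with the replicate block and −0.0021 without the choroid-rich libraries. Without those libraries it was −0.0037 for H2-DMa in young mice, 0.33 for Ciita in aged ICH vs. young ICH, 0.41 and 0.21 for the interactions of Cd74 and Ciita, and 0.20 for H2-Ab1 with age averaged. The interaction of Cd74 was 0.021 with the replicate block and 0.020 with limma. With limma, Ciita in aged ICH vs. young ICH was 0.0026, H2-Ab1 with age averaged 0.0014 and H2-DMa with ICH averaged 0.043.

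Leaving out 1 replicate at a time gave log2FC in aged sham vs. young sham of −0.32 to 0.42 for H2-Aa, −0.41 to 0.23 for H2-Ab1, −0.26 to 0.41 for H2-Eb1, −0.011 to 0.55 for Cd74, −0.049 to 0.22 for Ciita and −0.18 to 0.15 for H2-DMb1. In aged ICH vs. young ICH the ranges were −0.18 to 0.28, −0.13 to 0.30, −0.11 to 0.44, −0.098 to 0.37 and −0.16 to 0.12 for H2-Aa, H2-Ab1, H2-Eb1, Cd74 and Ciita, and for the interaction −0.37 to 0.38, −0.14 to 0.49, −0.24 to 0.44, −0.41 to 0.16 and −0.28 to 0.035. With age averaged they were −0.14 to 0.24 for H2-Aa, −0.16 to 0.16 for H2-Ab1, −0.045 to 0.29 for H2-Eb1 and −0.032 to 0.12 for Ciita. Ciita ranged from −0.0070 to 0.31 in young and −0.090 to 0.19 in aged mice, and H2-DMa from −0.0030 to 0.061 in young mice and −0.086 to 0.015 with ICH averaged. The cause of these shifts was not tested.

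With 3 pools per group, the 95% confidence interval of the young log2FC of H2-Aa ran from 0.50 to 2.33. Each member with an adjusted *P* under 0.05 (edgeR) lost that in 3 to 5 of the 12 fits without 1 library. The highest adjusted *P* in young mice was 0.138 for H2-Aa, 0.136 for H2-Ab1, 0.133 for H2-Eb1 and 0.0672 for Cd74, and in aged mice 0.114, 0.079, 0.106 and 0.0777 for these genes and 0.0844 for H2-DMb1.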
